A study of Mus musculus with 8 samples.

Results

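Genes without an immune label that were lower in every tumor of the Fusobacterium nucleatum group are described here. They were selected on the deposited log2 value of each tumor: a gene is a member when its highest value among the 4 tumors with the bacterium lies below its lowest value among the 4 tumors without it. This condition was met by 93 of the 752 genes that the deposited table holds, or 12.4%. That table holds no gene with an absolute log2 fold change under 1.001, so shares of its rows are shares of genes that already differed. Rows with the gene ontology term for immune system process, and named immune genes and families such as H2, Gbp, Gzm and the chemokines, were then left out. That removed 43 genes and left 50 members, or 8.14% of the 614 rows that remain in the table after the exclusions. Since the condition chose the members, their separation between the groups is a description of the choice and carries no test.

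The tumors were subcutaneous MC38 tumors, grown from a mouse colon adenocarcinoma line in germ-free C57BL/6 mice, labelled WT, and taken on day 23. The 4 tumors numbered 11, 17, 18 and 19 came from mice given an antibody against PD-1, an inhibitory receptor of T cells, by intraperitoneal injection. The 4 tumors numbered 36, 37, 39 and 40 came from mice given the same antibody and F. nucleatum ATCC-25586 by gavage. Every group thus carried the antibody and no untreated tumor was analysed here. Age and sex are not stated in the labels, and neither is whether each tumor came from its own mouse. The tumors of a group may thus not be independent, and the SD and SE given here may understate the spread between mice. Bulk RNA holds tumor cells and host cells together, and fewer cells of a type cannot be told apart from less RNA per cell.

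Infiltrating T cells and natural killer (NK) cells carry receptors for interleukins and for MHC molecules, and their interferon-gamma drives a set of interferon-inducible genes in neighbouring cells. The signal runs through STAT transcription factors, which bind the gamma-activated site, and interferon regulatory factors, which bind the interferon-stimulated response element. Genes of these families may lack a gene ontology process term, or carry process terms that do not include immune system process. A gene that passes an annotation filter for immune genes can therefore still be one that immune cells express.

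The label of non-immune genes did not hold for all 50. Lists of marker genes placed 4 members among T and NK lymphocyte genes (Il2rb, Klrc1, Eomes and Ms4a4b) and 4 among interferon-induced genes (Phf11b, Apol9a, Apol10b and Ly6i). Of these 8 genes, 4 had no biological process term in the table, and the others had terms but not that of immune system process. In all, 29 of the 50 members (58%) had no such term. The exclusion itself removes genes that carry one, and of the 614 rows it leaves, 52.0% had none, or 56.6% of the 228 that were lower. A further 5 members, named after their values were seen, are known from signalling in immune cells: Klra9, Scimp, Traf3ip3, Cish and Nr4a3. Gfap stood on the list of neuron and Schwann cell genes (3 of 25 listed are in the table, all lower), and Slc23a1 and Kcnab1 on that of solute carriers and ion channels (15 in the table, 7 lower). The members held none of the listed genes of myeloid cells (9 of 61 in the table, all lower), B cells (2 of 25, both lower), fibroblasts (1 of 39, lower), epithelium (4 of 24), red blood cells (7 of 14) or zinc finger proteins (4 in the table, 1 lower). No gene of the epithelial and red blood cell lists was lower. No gene of the endothelial, adipocyte, glycolysis, tricarboxylic acid cycle and cell cycle lists is in the table. The levels of those genes are thus not known here. Epcam, a marker of epithelial tumor cells, had 0 FPKM in all 4 tumors without the bacterium and in tumors 39 and 40, and 0.0121 and 1.30 FPKM in tumors 36 and 37. The other 3 epithelial-list genes in the table, Krt7, Cldn4 and Esrp1, were at 0.0388 FPKM or less in every tumor without the bacterium, and the remaining 20 of the 24 listed were not analysed here. The annotation (GENCODE M21, GRCm38, the same assembly as mm10) called 31 members protein-coding (62%, against 66.9% of the 614 rows left by the exclusion and 61.0% of the lower ones) and 19 non-coding, pseudogenes or loci still to be experimentally verified.

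Promoter sequences were not read by the rule, but its exclusion of interferon families by name and term can change which promoters remain. RefSeq windows of 300 bases on GRCm38.p6, with 250 bases before and 50 after a start, were found for 22 of the 50 members. The interferon-stimulated response element was searched on both strands as GAAA, any 2 bases and GAAA. It occurred in 6 of the 22 members (27.3%), namely Apol10b, Apol9a, Eomes, Fam169b, Kcnab1 and Phf11b, and in 3.99% of the 27025 genes with a window. Of the rows left by the exclusion 323 had a window and 21 of these held it, and of the lower ones among them, members included, 14 of 113 (12.4%) did. Of the lower immune rows that the exclusion removed, 85 had a window and 19 of these (22.4%) held it, a share near that of the members. The gamma-activated site, searched as TTCNNNGAA on both strands, occurred in 3 members (13.6%), Cish, Gfap and Kcnab1, in 9.55% of all genes, and in 22 of those 113 lower rows (19.5%). Among the 85 removed lower immune rows 19 held it (22.4%), a larger share than among the members. A gene counts here when any of its windows holds the motif. These 22 members are a small number and no test was run, and a match of letters is not a bound site. The windows of the 3 interferon-list members that have one, and that of Cish, a known target of STAT5, are printed to show where the elements lie, each 5′ to 3′ on the strand of the gene. Capitals mark the response element in the first 3 and the gamma-activated site in the last.
Phf11b, chr14:59341281-59341580, minus strand: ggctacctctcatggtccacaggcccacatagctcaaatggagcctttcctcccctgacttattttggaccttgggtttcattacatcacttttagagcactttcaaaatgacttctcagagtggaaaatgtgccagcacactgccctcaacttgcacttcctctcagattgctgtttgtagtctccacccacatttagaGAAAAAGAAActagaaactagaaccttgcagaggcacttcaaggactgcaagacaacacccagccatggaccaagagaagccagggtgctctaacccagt
Apol9a, chr15:77411031-77411330, minus strand: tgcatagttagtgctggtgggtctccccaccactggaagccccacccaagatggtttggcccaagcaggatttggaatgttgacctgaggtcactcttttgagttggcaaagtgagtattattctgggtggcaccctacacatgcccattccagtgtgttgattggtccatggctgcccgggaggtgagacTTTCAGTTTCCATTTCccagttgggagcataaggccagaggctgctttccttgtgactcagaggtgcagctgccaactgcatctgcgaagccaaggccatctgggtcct
Apol10b, chr15:77596076-77596375, minus strand: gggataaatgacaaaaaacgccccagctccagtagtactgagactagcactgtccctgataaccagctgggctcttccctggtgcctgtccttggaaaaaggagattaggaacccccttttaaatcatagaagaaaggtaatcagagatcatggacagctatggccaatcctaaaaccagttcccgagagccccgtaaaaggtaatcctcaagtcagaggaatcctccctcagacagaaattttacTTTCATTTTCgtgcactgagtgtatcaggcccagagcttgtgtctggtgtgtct
Cish, chr9:107296409-107296708, plus strand: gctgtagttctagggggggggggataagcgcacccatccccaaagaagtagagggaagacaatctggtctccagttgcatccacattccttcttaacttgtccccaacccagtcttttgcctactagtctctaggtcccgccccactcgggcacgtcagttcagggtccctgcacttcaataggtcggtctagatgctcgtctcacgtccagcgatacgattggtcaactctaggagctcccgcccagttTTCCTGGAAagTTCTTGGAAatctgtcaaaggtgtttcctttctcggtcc

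Counted from the first base of the window, with the start of the gene at base 251, the element lay at bases 201 to 210 in Phf11b. Apol9a held 2 copies that overlap, at bases 192 to 201 and 198 to 207. A second window of the gene overlaps the printed one and holds the same pair, not a further one. In Apol10b it lay across the start, at bases 247 to 256, and Cish held gamma-activated sites at bases 251 to 259 and 262 to 270. The TATA box, TATAAA, occurred in 36.4% of members and 15.7% of all genes. It occurred in 29.1% of the 323 rows left by the exclusion and 25.7% of the 113 lower ones among them. The GC box, CCGCCC, occurred in 31.8% of members, 39.8% of the 113 lower rows and 38.2% of all genes. For the E-box, CACGTG, these shares were 9.09%, 8.85% and 8.09%. The kappaB site occurred in no member window and in 0.174% of all genes. With only the 250 bases before the start, TATAAA occurred in 18.2% of members and 14.3% of genes, and the gamma-activated site in 4.55% and 8.13%. The response element then occurred in 22.7% of members and 3.46% of genes. For this shorter window the lower rows of the table were not counted.

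Values are deposited log2 values, that is log2 of a normalized read count plus 1, unless FPKM (fragments per kilobase, scaled to library size) is named. Over the 50 members the log2 difference, F. nucleatum minus anti-PD-1 alone, had a median of -2.07 and ranged from -4.14 to -1.04. The median over the 353 lower genes of the whole table was -1.82, and that over the 43 immune genes left out by the rule was -1.92. The largest p in the table is 0.04995 and its smallest log2 fold change, in absolute size, 1.001, so it shows no smaller differences. By the authors' deposited FDR, 9 of the 50 members were under 0.05 and 18 were above 0.5, while 6.25% of all rows were lower and under 0.05. The 9 are Gpm6b, Klra9, Ly6i, Ms4a4b, Spon1, Scimp, Gm20488, Gfap and Kank4. The FDR rests on the same contrast as the choice and adds no support to it.

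**Figure D1:**
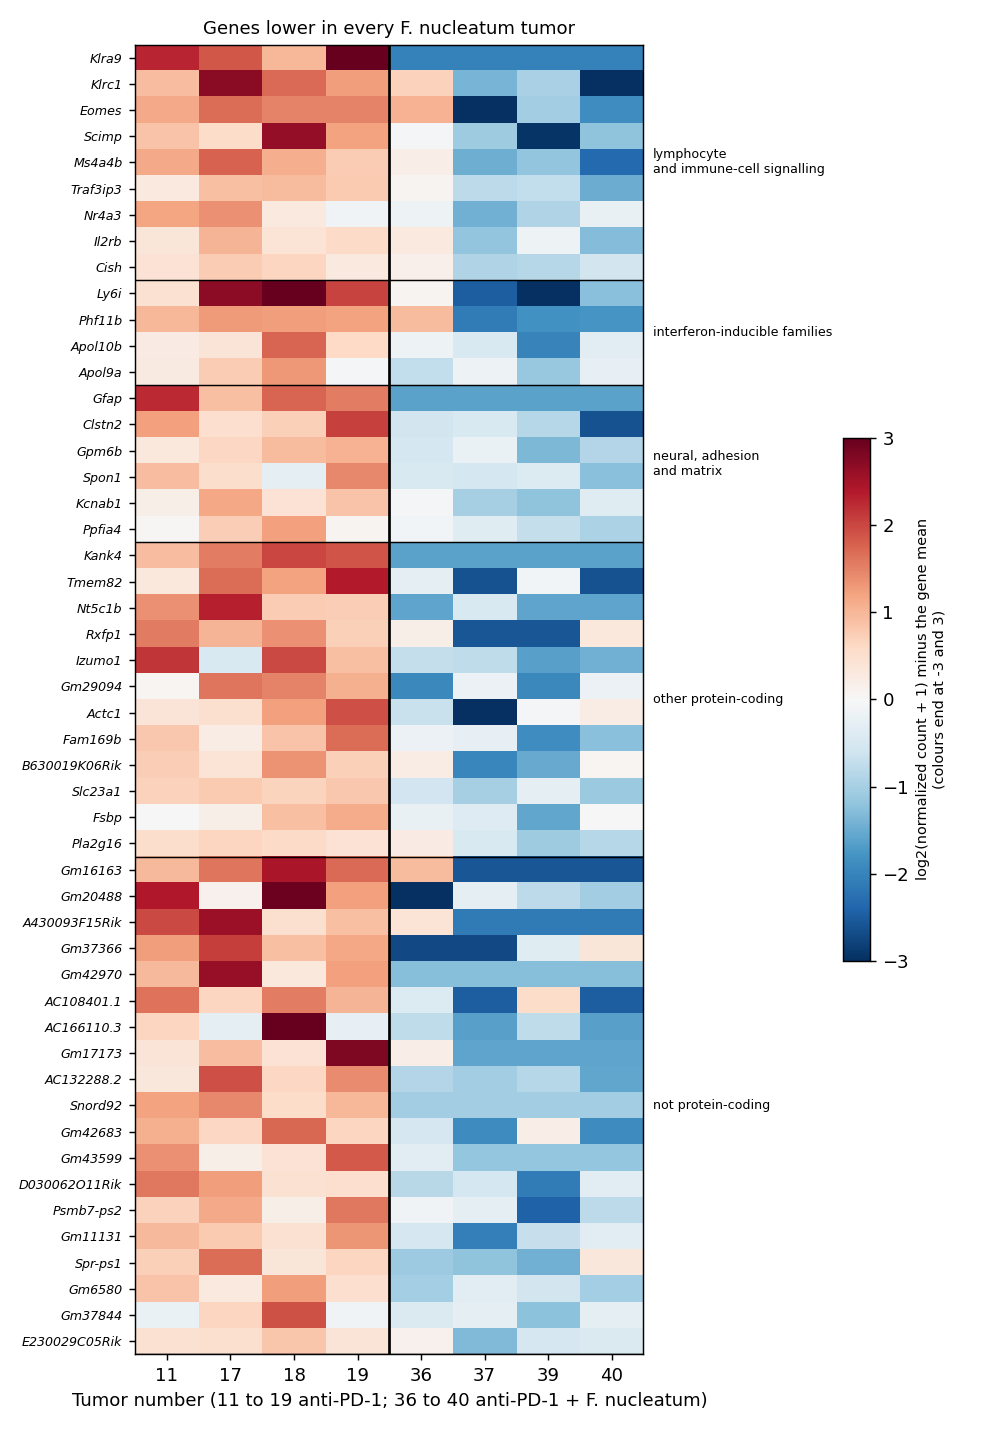
Heat map of the 50 genes (rows, grouped by role) in the 8 tumors (columns, tumor number); colour is the log2(normalized count + 1) of a tumor minus the mean of that gene over the 8 tumors, and colours end at -3 and 3. Tumors 37, 39 and 40 are blue in most rows, while tumor 36 is pale, with a median of -0.36 over the 50 genes against -1.18, -1.17 and -1.18.

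Among the 4 tumors with the bacterium, tumor 36 stood closest to the tumors without it. It held the highest value of its group in 23 of the 50 members, tumor 37 in 6, tumor 39 in 7 and tumor 40 in 9, and in 5 members all 4 tumors were level at 0. Of the 8 members on the lymphocyte and interferon lists tumor 36 was highest in 7, and of the other 42 in 16. The rule's left-out immune genes had their highest F. nucleatum value in tumor 36 in 37 of 43. Summed over the 43 lymphocyte-list genes in the table, of 105 listed, tumor 36 held 30.3 FPKM and tumors 37, 39 and 40 held 9.69, 10.4 and 5.46 FPKM. The 4 tumors without the bacterium held 35.5 to 66.1 FPKM. Of the markers that define T cells, Cd3d had 0 FPKM in tumor 40 and Cd3g, Cd8a and Trac were above 0 in every tumor. Other defining markers were not analysed here. Tumor 36 also held the muscle genes of the table (472.0 FPKM over 21 of 24 listed, against 2.65 to 3.80 without the bacterium), and tumor 37 the skin genes (432.5 FPKM over 21 of 25 listed, against 1.09 to 2.23). Whether muscle or skin tissue in these 2 tumors had a part in the values of the members was not tested. Without tumors 36 and 37, a comparison chosen after seeing the data, the median log2 difference was -2.15. The rule itself keeps all 50 members lower there, so that comparison cannot tell whether the 2 tumors mattered.

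Genes of lymphocytes and immune-cell signalling made up 9 of the protein-coding members, with a median log2 difference of -2.38. Tumor 36 was highest of its group in 8 of them, and in Klra9 all 4 tumors were at 0. Il2rb (chromosome 15, 78479256 to 78495271), the beta chain of the receptors for interleukins 2 and 15, had log2 values of 8.42, 9.09, 8.47 and 8.64 in tumors 11, 17, 18 and 19 and of 8.35, 6.87, 7.91 and 6.77 in tumors 36, 37, 39 and 40. Tumor 36 lay just under the tumors without the bacterium, and tumors 37 and 40 lay lowest. The mean level was 1.49 ± 0.331 FPKM without the bacterium and 0.725 ± 0.405 FPKM with it (mean ± SD, n = 4 each).

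The NK receptors Klra9 and Klrc1 had the most negative differences of these 9. Klra9 (chromosome 6, 130178675 to 130193112), which encodes an inhibitory Ly49 receptor for MHC class I, had 20, 9, 7 and 40 reads in the 4 tumors without the bacterium and 0 in each of the 4 with it. Counting error alone allows 3 reads over that group. With 3 reads allowed, the level was 27.6-fold lower in the libraries with the bacterium. That figure takes the reads of the 4 tumors without the bacterium as exact, so it is no strict lower limit. Its neighbours Klra8 and Klra7, within 100000 bases, differed by -3.02 ± 1.01 and -2.02 ± 0.749 (SE), with groups that overlapped. The Ly49 genes are close copies, so reads may have been divided between them. Klrc1 (chromosome 6, 129666015 to 129678973), which encodes the inhibitory receptor NKG2A, had log2 values of 5.84, 7.63, 6.62 and 6.17 without the bacterium and 5.62, 3.52, 3.96 and 0 with it. Its groups were separated by 0.225 between tumor 11 and tumor 36, and its close copy Klrc2 may share reads. Klrd1 and Klrk1 lie within 100000 bases of Klrc1, encode NK receptors, and were also lower in every tumor with the bacterium (-2.73 ± 1.27 and -2.15 ± 0.728, SE).

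Eomes (chromosome 9, 118478212 to 118486132), a T-box transcription factor of cytotoxic T and NK cells, had log2 values between 5.07 and 5.62 in the tumors without the bacterium. With it the values were 4.98 in tumor 36, 0 in tumor 37, 2.90 in tumor 39 and 2.06 in tumor 40. The group difference of -2.90 ± 1.04 (SE) thus came from tumors 37, 39 and 40, and without tumor 36 it was -3.73. Ms4a4b (chromosome 19, 11443553 to 11467055), a membrane protein of T cells, had 7.70, 8.35, 7.67 and 7.35 without the bacterium and 6.78, 5.11, 5.40 and 4.25 with it. All 4 tumors with the bacterium were lower by more than 0.5 log2 units than any without it.

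The remaining members of this role are signalling proteins. Scimp, an adaptor of antigen-presenting cells, differed by -2.63 ± 0.759 (SE), from 6.13, 5.83, 7.91 and 6.49 to 5.24, 4.20, 2.33 and 4.07. Traf3ip3, an adaptor expressed in lymphocytes, differed by -1.47 ± 0.358. Cish, which inhibits cytokine receptor signalling as a target of STAT5, had 6.79, 7.12, 7.0 and 6.64 without the bacterium and 6.52, 5.46, 5.5 and 5.81 with it. Its tumor 36 lay 0.120 under the lowest tumor of the other group, and tumors 37, 39 and 40 lay near each other. Nr4a3, a nuclear receptor induced early after stimulation of many cells, T cells included, differed by -1.36 ± 0.465 with a gap of only 0.0485.

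**Figure D2:**
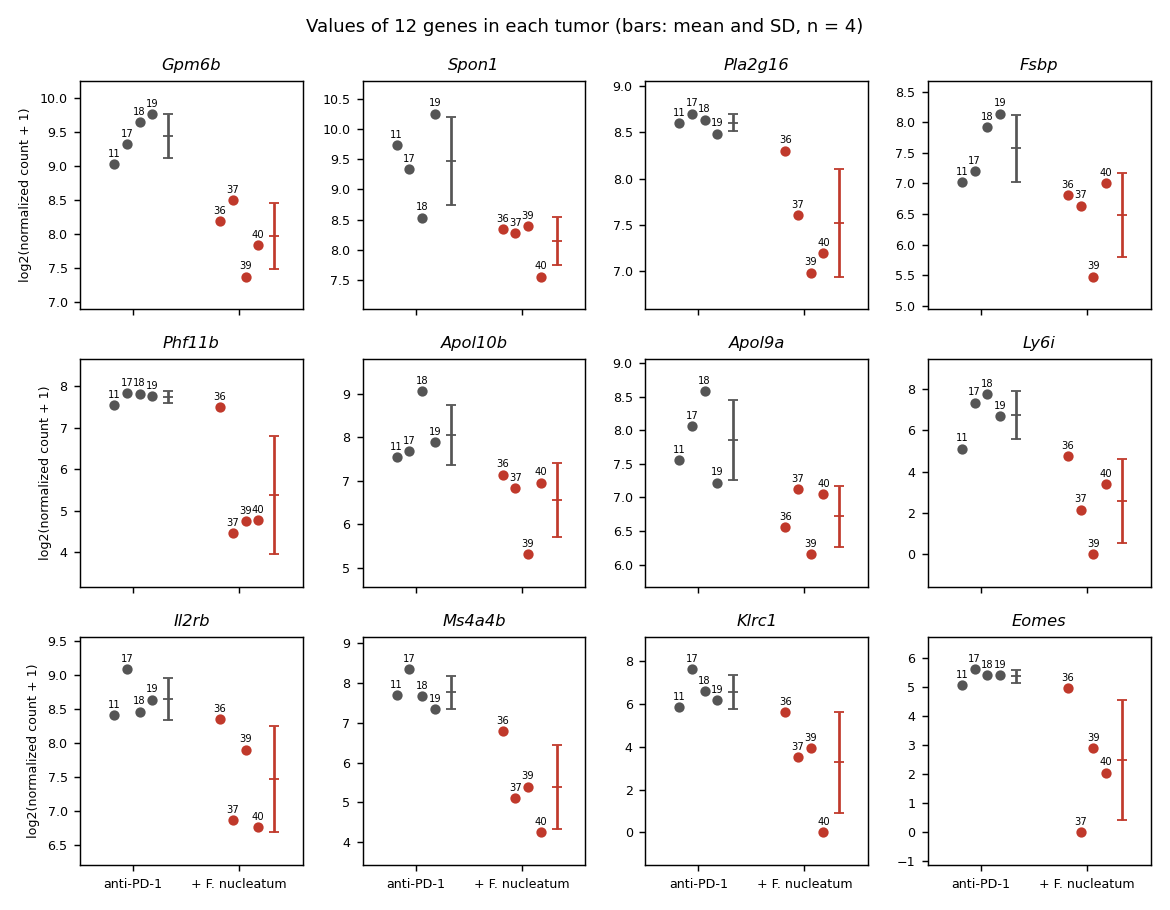
Log2(normalized count + 1) of 12 members in each tumor, one panel per gene, with points labelled by tumor number; bars give the mean and SD of 4 tumors in each group, and vertical scales differ between panels. Tumor 36 lies beside the anti-PD-1 tumors for Phf11b (7.49 against 7.54 to 7.83) and Eomes, but not for Spon1, where it lies with tumors 37 and 39.

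The interferon-inducible families gave 4 members with a median log2 difference of -1.93. Phf11b (chromosome 14, 59320964 to 59341351), a PHD finger gene of an interferon-inducible cluster, had the highest FPKM of all 50 members without the bacterium (2.82 ± 0.207, mean ± SD, n = 4). Its log2 values were 7.54, 7.83, 7.82 and 7.76 without the bacterium. With it they were 7.49 in tumor 36 and 4.45, 4.74 and 4.78 in tumors 37, 39 and 40. So 3 of the tumors were low by about the same amount and tumor 36 was hardly below the other group. The gap was 0.0522, and without tumor 36 the difference moved from -2.37 to -3.08. Its neighbour Phf11d, 6056 bases away, differed by -1.19 ± 0.465 (SE) with overlapping groups.

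The apolipoprotein L genes and Ly6i varied more within the groups. Apol10b (chromosome 15, 77583819 to 77596125) had log2 values of 7.55, 7.69, 9.05 and 7.89 without the bacterium and 7.14, 6.84, 5.31 and 6.96 with it. Apol9a (chromosome 15, 77403789 to 77411135) had 7.56, 8.06, 8.58 and 7.22 against 6.56, 7.13, 6.15 and 7.04, and is uncertain because Apol9b is a near-identical copy. For both genes tumor 18 was highest and tumor 39 lowest, and for Apol9a, unlike the other 3, tumor 37 was highest of its group. Ly6i (chromosome 15, 74979534 to 74983430), a surface protein of the Ly6 family, had the most negative difference of the 50, -4.14 ± 1.16 (SE). Its values were 5.11, 7.33, 7.74 and 6.68 without the bacterium and 4.74, 2.16, 0 and 3.39 with it, and other Ly6 genes are close copies. Summed over the 41 genes of the interferon list in the table, of 143 listed, tumor 36 had 174.0 FPKM, within the 140.1 to 449.7 FPKM of the tumors without the bacterium, and the others had 42.2 to 57.1 FPKM.

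Genes known from neural tissue, adhesion and matrix gave 6 members, with a median log2 difference of -1.40. Gpm6b (chromosome X, 166238911 to 166388988), a membrane glycoprotein of the proteolipid family, had the lowest FDR of the members in the authors' deposited table, 1.21e-05. It had log2 values of 9.03, 9.32, 9.65 and 9.76 without the bacterium and 8.19, 8.50, 7.37 and 7.83 with it, or 1.97 ± 0.410 and 0.721 ± 0.234 FPKM (mean ± SD, n = 4 each). Here tumor 37 and not tumor 36 was highest of its group, and the groups were separated by 0.531. Each of its libraries held at least 204 reads, so counting error is small beside the difference of -1.47 ± 0.294 (SE).

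Spon1 (chromosome 7, 113765998 to 114043370), which encodes the matrix protein F-spondin, had 9.74, 9.34, 8.53 and 10.26 without the bacterium and 8.34, 8.28, 8.40 and 7.55 with it. The log2 SD was 0.727 without the bacterium and 0.395 with it, where tumor 40 lay lowest. Tumor 18 came within 0.137 of tumor 39. Ppfia4, a scaffold protein of the liprin family, had the smallest difference of the 50 (-1.04 ± 0.345, SE). Clstn2, a synaptic adhesion protein, had 14, 5, 9 and 31 reads without the bacterium and 4, 3, 3 and 0 with it. Kcnab1, a beta subunit of potassium channels, had 15, 19, 17 and 30 against 15, 5, 6 and 9. Gfap (chromosome 11, 102887336 to 102900912), an intermediate filament of glia, had 14, 3, 9 and 10 reads without the bacterium and 0 in every tumor with it. With 3 reads allowed over that group it was 13.1-fold lower. At 0.0284 ± 0.0137 FPKM (mean ± SD, n = 4) it was scarcely expressed in either group.

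The other 12 protein-coding members share no role. Pla2g16 (chromosome 19, 7557459 to 7588545), a phospholipase known from fat cells, was nearly constant without the bacterium at 8.59, 8.70, 8.63 and 8.48. With it the values were 8.30, 7.6, 6.99 and 7.20, so tumor 36 again lay closest to the other group and the mean FPKM went from 0.946 ± 0.0567 to 0.475 ± 0.221 (mean ± SD, n = 4 each). Slc23a1, the sodium-dependent transporter of vitamin C, was also constant without the bacterium (4.69, 4.78, 4.67 and 4.80) and lower with it (3.41, 2.99, 3.71 and 2.88). Its gap of 0.955 was wide for so few reads, 17 to 34 against 6 to 15. Kank4, of a family that regulates actin, had 5, 5, 11 and 13 reads against 0 in all 4, or 12.4-fold lower with 3 reads allowed.

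Fsbp, a repressor named for the fibrinogen silencer, had 7.02, 7.20, 7.92 and 8.14 without the bacterium and 6.80, 6.64, 5.48 and 7.01 with it. It shares 47.5% of its exon bases with Rad54b on the same strand, so reads of the DNA repair gene cannot be kept apart from it. Nt5c1b, a cytosolic nucleotidase that forms adenosine, had 7, 9, 4 and 5 reads against 0, 1, 0 and 0. Rxfp1, the relaxin receptor, had 17, 7, 14 and 11 reads against 7, 0, 0 and 6. Actc1, the cardiac actin, had 15, 10, 26 and 56 reads against 8, 0, 13 and 12. By log2 value tumor 40 was highest of its group at 3.77. Tumor 36, where the muscle genes of the table were high, had 2.89. The rule itself keeps tumor 36 below every tumor without the bacterium, and a part for muscle tissue was not tested. Izumo1, a sperm protein of gamete fusion, had 25, 2, 21 and 12 reads against 3, 2, 1 and 1, and shares 21.9% of its exon bases with Rasip1. Differences for Tmem82, Fam169b and B630019K06Rik were -2.80 ± 0.825, -1.78 ± 0.507 and -1.60 ± 0.581 (SE).

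Some members overlap or lie close to immune genes. Gm29094 (chromosome 9, 89199379 to 89215471) shares 60.4% of its exon bases with Bcl2a1b, a survival gene of blood cells, and 39.5% with Mthfs, on the same strand, so its reads cannot be kept apart from theirs. It had log2 values of 3.75, 5.32, 5.19 and 4.76 without the bacterium and 1.77, 3.52, 1.77 and 3.53 with it, so tumors 36 and 39 were lowest, with 3 reads each. Gm11131 (chromosome 17, 35377021 to 35380292) runs antisense to the MHC class I gene H2-Q4 and shares 496 exon bases with it. It had 37, 20, 24 and 57 reads against 15, 3, 13 and 13, a difference of -1.78 ± 0.431 (SE), beside -1.45 ± 0.372 for H2-Q4. The libraries are strand-specific per the labels, but no source used here gives the strand setting of the counting.

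Gm43599 (chromosome 5, 92290052 to 92302760) lies 18587 bases from Cxcl9 and had 5, 1, 2 and 9 reads against 1, 0, 0 and 0. Tumors 17 and 36 held 1 read each, so only scaling for depth set them apart, and in FPKM their order was reversed (0.00684 and 0.0154). The nearby Cxcl9, Cxcl10 and Cxcl11 differed by -3.55, -1.30 and -2.78, with groups that overlapped. A430093F15Rik (chromosome 19, 10740947 to 10786043) lies 3298 bases from the lymphocyte gene Cd6, which differed by -1.58 ± 0.554 (SE). It had 17, 16, 5 and 9 reads against 6, 0, 0 and 0. Another lower gene of the table lay within 100000 bases of 10 of the 50 members (20%), and of 26.9% of the 353 lower genes.

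The remaining loci not annotated as protein-coding were weakly expressed. Gm20488 (chromosome 5, 149368476 to 149430682) had 130, 16, 178 and 69 reads without the bacterium and 0, 16, 16 and 10 with it, and of these 19 members it alone was under 0.05 by the authors' deposited FDR (0.0152). Tumor 36 was lowest, and the gene shares 48.5% of its exon bases with Medag. Snord92, a small nucleolar RNA in an intron of Wdr43, had 4, 3, 2 and 4 reads against 0 in all 4 tumors. With 3 reads allowed it was 4.72-fold lower, and a library of longer RNA may capture such a short transcript poorly. Gm42970, in an intron of Ank2, had 4, 9, 2 and 6 reads against 0, or 7.63-fold lower with 3 reads allowed. The processed pseudogene Gm6580, the pseudogenes Spr-ps1 and Psmb7-ps2, and AC166110.3, which the table gives no symbol, copy other genes and their reads are uncertain. AC166110.3 had 74 reads in tumor 18 and 0 to 4 in every other tumor. The other 9, AC132288.2, D030062O11Rik, Gm37366, Gm42683, Gm17173, Gm37844, AC108401.1, Gm16163 and E230029C05Rik, had differences from -3.37 for Gm16163 to -1.07 for E230029C05Rik. Of all 50 members 8 share exon bases with another gene on the same strand. Among them are Psmb7-ps2 (68.8% with Gm6787), Gm16163 (25.0% with Gnpat) and Gm17173 (11.7% with Gm49364). Across all 19 members not annotated as protein-coding, 12 had 0 reads in at least 1 tumor with the bacterium.

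**Figure D3:**
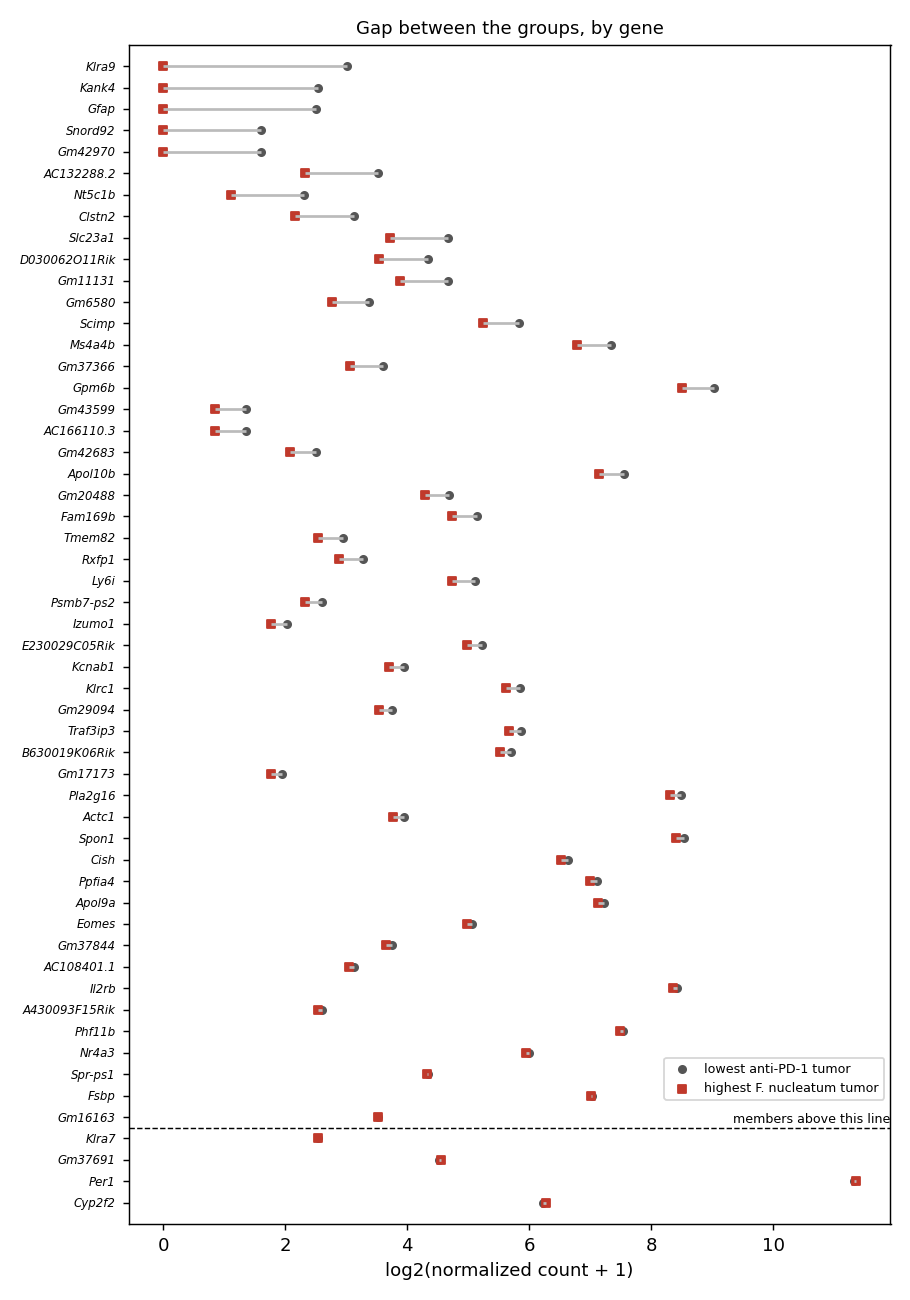
For each member, the lowest log2(normalized count + 1) among the anti-PD-1 tumors (grey circle) and the highest among the F. nucleatum tumors (red square), sorted by the gap, with the 4 nearest genes that overlap below the dashed line. The gap runs from 3.02 for Klra9 to 0.0114 for Gm16163, and 11 members have a gap under 0.1.

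The members form no separate class at the edge of the rule. Just inside it were Gm16163, with a gap of 0.0114, Fsbp with 0.0136, Spr-ps1 with 0.0202 and Nr4a3 with 0.0485. The nearest genes with overlapping groups were Klra7 (-0.00791), Gm37691 (-0.0290), Per1 (-0.0364) and Cyp2f2 (-0.0467). A further 59 genes of lower mean, among them Pcdha9, Zkscan16, Gm7889 and Gm12247, had a gap of exactly 0. With each tumor centred to the median of the 297 rows above 0 in every tumor, which adds 0.763 to each difference, 20 genes met the rule. All 50 members stayed lower in the mean, because every difference was larger in size than the 0.763 added. The median gap of the members was 0.325, and 7 members had a gap above 1. Those 7 were Klra9, Kank4, Gfap, Gm42970, Snord92, AC132288.2 and Nt5c1b, all with at most 40 reads in any tumor.

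Depth limited many of these values. One read was worth a normalized count of 0.789 to 1.55 depending on the tumor, and 3 reads equal 2.37 to 4.66. The table gave 97511 to 308139 reads per tumor, of which the 50 members held 1438 to 6744. No member was at 0 in a tumor without the bacterium, as the rule requires, and 23 members were at 0 in at least 1 tumor with it: 8 members in tumor 36, 17 in tumor 37, 13 in tumor 39 and 16 in tumor 40. Intervals and floors cover counting error only, and the fold for a member at 0 covers only that of the tumors with the bacterium. The median member had 0.162 FPKM without the bacterium, and 7 members had at least 1 FPKM there. FPKM comes from the same reads and is no independent measure. All 50 members were lower in mean FPKM, and in 44 the FPKM values of the groups did not overlap, while 48 of the 614 rows left by the exclusion (7.82%) were separated in this way. FPKM values overlapped in Gm43599, AC166110.3, Gm42683, AC108401.1, A430093F15Rik and Spr-ps1. In some members, among them Gm43599, AC166110.3, Izumo1 and Kcnab1, the lowest read count without the bacterium was no higher than the highest with it. Scaling for depth alone separated the groups there.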

How the data were processed

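RNA of 8 tumors was sequenced from TruSeq libraries that keep strand, per the labels' protocols. Listed in the submitters' processing notes, without their roles, are DESeq 1.22.1, Cuffnorm, STAR 2.5, FastQC and mm10. The authors' deposited table gives for each tumor an FPKM value and a log2 value, which the numbers show to be log2 of a normalized count plus 1. The authors' deposited p-value, FDR and log2 fold change come from a test that no source used here names.

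For every tumor all normalized counts above 0 were whole multiples of one step within 0.1 read (100% of values), which gave reads per gene but no library total. Groups followed the treatment labels, and replicate numbers pair no tumors. Members and gene lists were chosen with earlier results of these data known. Roles were assigned after values were seen. No test between the groups was run, since the rule used all 8 tumors in the one contrast. Dixon's limit was used only to list tumors that lie apart within a group. Differences are means of log2 values with the SE of a difference of 2 means of 4 values.

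Genes named are the 10 with the highest mean FPKM, the 8 with the widest gap, the 4 at each side of the edge, all members on a marker list, and others by role. Alternatives were FPKM, a pseudocount of 0.1, centring, filters at 1 FPKM and 10 reads, each tumor left out, no exclusion, and, added after seeing the data, tumors 36 and 37 left out together. Promoters were matched by Ensembl ID or symbol. Scripts were tested on simulated data and ran under Python 3.11.15 (pandas 2.3.3, numpy 2.4.6, matplotlib 3.10.9).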

Additional observations from a re-analysis of the deposited data

Results flagged for a closer look

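In 9 of the 95 groups of 4 tumors examined (those with unequal values), 1 tumor lay farther from the nearest of the others than Dixon's 95% critical value for 4 samples allows. All 9 lay in the F. nucleatum group. The usual chance rate of 1 in 20 groups does not apply to the 5 genes whose other 3 tumors were level at 0, where any read passes the limit, and the genes were chosen on these same values, so the flags are a description. Tumor 36 was the high one in Phf11b (7.49, nearest 4.78), Gm16163 (3.51), A430093F15Rik (2.54), Gm17173 (1.77) and Gm43599 (0.85), where the other 3 tumors of the last 4 genes were at 0. Nt5c1b had 1.11 in tumor 37, which is 1 read, and 0 in the others. Tumor 39 was low in Apol10b (5.31, nearest 6.84) and Gm37844 (2.73, nearest 3.51), and tumor 40 in Spon1 (7.55, nearest 8.28).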

How the results depend on the processing

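The number of genes meeting the rule was 50 with a pseudocount of 0.1, which keeps the order of the values and so cannot change the number. It was 48 on log2(FPKM + 1), 33 when only genes averaging 10 reads or more were kept, and 4 when those averaging 1 FPKM or more were. With each tumor centred to the median of the 297 rows above 0 in all tumors it was 20, and the median log2 difference -1.30. That centring adds 0.763 to every difference within a table of selected genes. Without the exclusion of immune genes it was 93. Leaving out a tumor gave 57 to 100 genes, because fewer tumors must be separated. It was 100 without tumor 36, 82 without tumor 11, 77 without tumor 17 and 78 without tumor 18, and 111 without tumors 36 and 37 together. The median log2 difference of the 50 was -2.13 to -1.97 with a tumor left out, -2.58 with the smaller pseudocount and -0.16 on log2(FPKM + 1), where adding 1 to values far below 1 shrinks differences. Without the 8 members on immune lists it was -2.02. All 50 members were lower in every alternative. With a tumor left out or the smaller pseudocount the rule itself fixes that outcome. Centring cannot reverse a member either, because it adds less than the smallest difference of the 50. No paired analysis was possible because the groups share no replicate numbers in the labels.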
